A study of Homo sapiens with 8 samples.

Results

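The 49 mitosis and kinetochore genes described here encode the cyclins, kinases, checkpoint proteins, kinetochore proteins, kinesins and chromosome proteins with which a cell builds a spindle and divides. They were taken as a list of gene symbols, with no measured value in the rule, and they are 49 of the 63677 genes listed. All 49 were expressed highly enough to be among the 15646 genes tested.

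RNA came from Jurkat, a human cell line established from T-cell acute lymphoblastic leukaemia (T-ALL), in which the transcription factor TAL1 carries the FKBP12 tag that the degrader dTAG-13 recognises. In 4 groups of 2 libraries each, cells had received for 24 hours the combination of dTAG-13 and GSI, GSI alone, dTAG-13 alone, or the solvent DMSO. GSI is the usual abbreviation for an inhibitor of gamma-secretase, the protease whose cut releases the active form of NOTCH. All 4 groups carry the tagged TAL1, so no group has untagged TAL1, and the labels give no doses. The labels do not say that replicates were separate cultures. The p-values therefore measure only how far these samples spread, a spread that may be technical.

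Mitotic transcripts are made late in the cell cycle and many decline when a cell leaves mitosis, so their level in a culture depends in part on how many cells are in G2 and M phase. Kinetochore proteins tie chromosomes to spindle microtubules, kinesins move along or shorten those microtubules, and the checkpoint holds back separation until every chromosome is attached. Their genes share promoter elements: the cell cycle genes homology region (CHR), through which the DREAM and MuvB complexes act, and the CCAAT box, which binds NF-Y. In T-ALL, NOTCH and TAL1 are both known as drivers of growth.

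The promoters were read to show those shared elements beside the measurements. RefSeq (GRCh38.p14) gave 300 bases, 250 before the start and 50 from it on, for 43 of the 49 genes. FOXM1, AURKA, TPX2, BIRC5, BUB3 and TTK were the other 6. On either strand, 32 of 43 (74.4%) held the CHR letters TTTGAA, against 15.2% of all 35116 promoters in that table. Those 35116 take every entry of every gene, tested here or not, while each of the 43 genes was read at its first entry only. The variant TTCGAA was in 2 of 43 (4.65%), against 1.45% of all. The CCAAT letters were in 31 of 43 (72.1%), against 34.6% of all, and 25 of 43 (58.1%) held CCAAT with a CHR of either form, against 6.38% of all. The E2F letters TTCCCGC were in 5 of 43 (11.6%), against 6.55%, and TTGGCGC in 5 of 43, against 3.04%. CAGATG, an E-box form that TAL1 and its partners bind, was in 3 of 43 (6.98%), against 14.7%. Motifs may share bases and were counted separately. A match is a description of the letters, not a bound site, and the counts themselves were made on hg19.

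A CHR of either form began between 60 bases before and 44 bases after the start in 28 of 43 promoters (65.1%), against 5.44% of all. The 6 stretches of 120 bases shown here let the spacing be read directly, 3 from genes that passed the test with GSI (HMMR, ESPL1, KIF18A) and 3 from genes that did not (PLK1, CDCA8, CDC20). Only genes with TTTGAA on their own strand close before the start were eligible, so the 6 do not show how common that spacing is. CENPE and CCNA2 held no CHR of either form, and in ASPM the CHR began 113 bases before the start. Each stretch is given 5′ to 3′ on the gene's strand, with CHR and CCAAT (or its reverse complement ATTGG) in capitals. They lie at chr5:163460512-163460631 (HMMR, plus strand), chr12:53268179-53268298 (ESPL1, plus), chr11:28108157-28108276 (KIF18A, minus), chr16:23678769-23678888 (PLK1, plus), chr1:37692396-37692515 (CDCA8, plus) and chr1:43358861-43358980 (CDC20, plus). HMMR has 2 CHR copies in tandem, starting 28 and 22 bases before the start (ANLN, which did not pass, has 2 on opposite strands, 26 and 20 bases before it), and an upstream CCAATTGG in which a CCAAT on each strand overlaps. In CDCA8 the CHR shares its last base with an ATTGG. PLK1, which did not pass, has 1 CHR and 1 CCAAT as ESPL1 does, with the CHR 29 bases before the start against 31 in ESPL1. The CCAAT differs in place and strand: it begins 73 bases before the start on the gene's strand in PLK1. In ESPL1 it begins 48 bases before the start on the other strand.
HMMR: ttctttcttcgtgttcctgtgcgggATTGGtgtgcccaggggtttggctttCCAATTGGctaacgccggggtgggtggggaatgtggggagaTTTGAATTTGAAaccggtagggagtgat
ESPL1: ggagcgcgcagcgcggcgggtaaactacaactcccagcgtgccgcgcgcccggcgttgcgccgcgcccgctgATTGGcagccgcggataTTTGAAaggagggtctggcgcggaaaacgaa
KIF18A: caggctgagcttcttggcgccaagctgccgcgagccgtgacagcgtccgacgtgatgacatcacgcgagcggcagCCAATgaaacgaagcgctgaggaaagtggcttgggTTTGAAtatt
PLK1: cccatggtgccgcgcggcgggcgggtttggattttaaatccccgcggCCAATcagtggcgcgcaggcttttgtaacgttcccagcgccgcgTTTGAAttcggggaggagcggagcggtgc
CDCA8: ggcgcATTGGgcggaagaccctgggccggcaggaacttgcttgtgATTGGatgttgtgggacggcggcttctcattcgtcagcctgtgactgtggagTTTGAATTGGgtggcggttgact
CDC20: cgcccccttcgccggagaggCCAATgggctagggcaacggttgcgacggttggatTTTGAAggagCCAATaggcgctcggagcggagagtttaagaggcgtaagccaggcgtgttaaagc

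**Figure D1:**
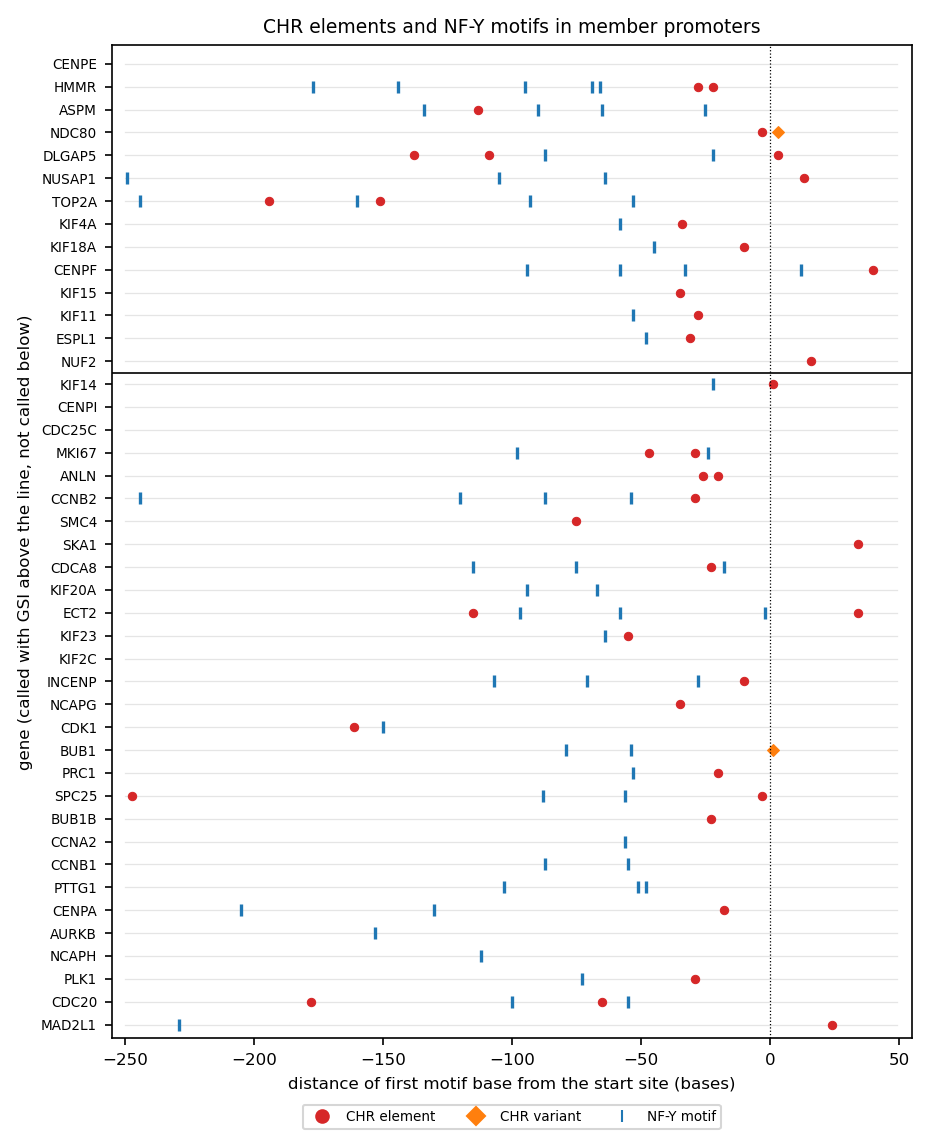
Positions of the CHR element, its variant and the NF-Y motif (the CCAAT box) in the promoters of 43 mitosis genes. Each row is a gene, and the horizontal axis is the distance in bases of the motif's first base from the start site. Genes called higher with GSI stand above the line and genes not called below it. CHR marks crowd near the start in both sets, with a CHR of either form in 13 of 14 called promoters (92.9%) and 20 of 29 not called (69%).

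The 8 libraries held 17544319 to 22180009 counts, of which 7.8% to 8.81% were mitochondrial. TAL1 transcript, which does not report on degradation of the protein, had 197 and 199 CPM (counts scaled to library size with TMM factors) with the combination, 208 and 198 CPM with GSI, 145 and 147 CPM with dTAG-13 and 154 and 166 CPM with DMSO. The NOTCH target DTX1 was at 17 to 19.7 CPM in the 4 libraries with GSI and at 99.5 to 154 CPM in the 4 without it. The 10 T-cell markers summed to 2390 to 2840 CPM in the libraries with GSI and to 2660 to 2870 CPM in those without. The 6 myeloid markers summed to 0.288 to 0.61 CPM with GSI and 0.363 to 0.52 CPM without, with MPO and FCGR3A at 0. The 6 epithelial and stromal markers were at 329 to 374 CPM in sum with GSI and 317 to 352 CPM without. EPCAM, KRT18 and KRT19 were at 0, so the whole sum lay in KRT8, COL1A1 and VIM. The 6 B-cell markers lay at 97.7 to 120 CPM in sum with GSI and at 69.8 to 81.3 CPM without, with none at 0, and their part in the results was not tested.

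The mitosis genes were abundant and stood a little higher in the libraries with GSI. Their mean level over the 8 libraries ran from 27.3 CPM (CDC25C) to 435 CPM (TOP2A), with a median of 129 CPM, against 19.9 CPM for all genes tested. Counts of single genes in single libraries ran from 454 to 11044. Per kilobase of exon in DMSO, CDC20 was highest at 152 CPM per kilobase, followed by TPX2 at 98.5, and CENPI was lowest at 6.8. Summed over the 49 genes, levels were 7672 and 7906 CPM with the combination, 8074 and 7890 CPM with GSI, 7163 and 7084 CPM with dTAG-13 and 6994 and 6937 CPM with DMSO. The 4 libraries with GSI were thus all above the 4 without it. In bulk RNA, a larger share of cells in mitosis and more of these RNAs per cell cannot be told apart.

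**Figure D2:**
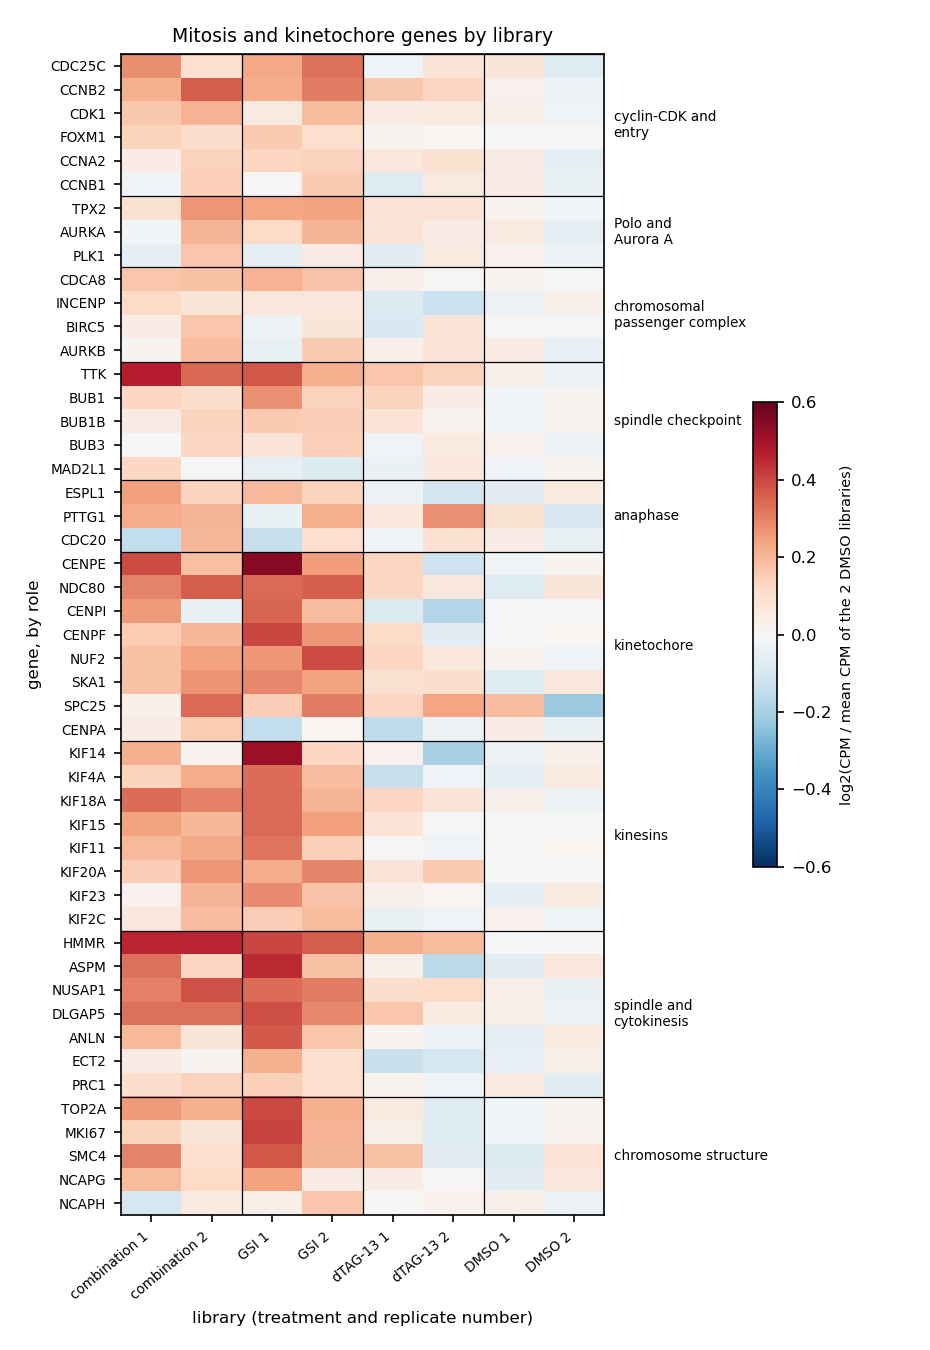
Level of each of the 49 genes in each library, as log2 of its CPM over the mean CPM of the 2 DMSO libraries, in columns for the combination, GSI, dTAG-13 and DMSO. Red is above DMSO and blue below it, and genes are grouped by role. The 4 columns with GSI are mostly red, least so for CDC20, MAD2L1, PLK1 and CENPA, while the dTAG-13 columns are pale in both directions.

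The comparison that uses all 8 libraries sets the 4 with GSI (GSI and combination) against the 4 without it (dTAG-13 and DMSO), as the effect of GSI averaged over both TAL1 states. In edgeR's quasi-likelihood test with Benjamini-Hochberg adjustment over all genes tested, 15 of the 49 rose, 0 fell and 34 did not pass, against 3.38% of all genes tested that rose and 3.56% that fell. The log2 fold change was positive in 47 of 49, against 51.6% of all genes, and the median was 0.17, against 0.01 over all genes. In 26 of 49 all 4 libraries with GSI were above all 4 without it, against 7% of all genes. These shares of all genes come from genes not matched in level, with a median of 19.9 CPM against 129 CPM for the 49. At an unadjusted p below 0.05, 33 of 49 were higher and 0 lower, against 11.1% of all genes higher and 10.8% lower. These were small changes: the 15 genes called rose by 1.16-fold (ESPL1) to 1.27-fold (CENPE).

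Most of those calls rested on having all 8 libraries. Leaving out 1 library left 4 members called without dTAG-13 replicate 1, 1 without dTAG-13 replicate 2, 6 without GSI replicate 1, 18 without GSI replicate 2, 6 without combination replicate 1, 11 without combination replicate 2, 1 without DMSO replicate 1 and 2 without DMSO replicate 2. Over all genes the share called higher in those fits was 1.1% to 4.47%. HMMR passed in all 8 of these fits (adjusted p between 0.00455 and 0.0371), and the other 14 each missed in at least 1. All 15 kept a positive sign.

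**Figure D3:**
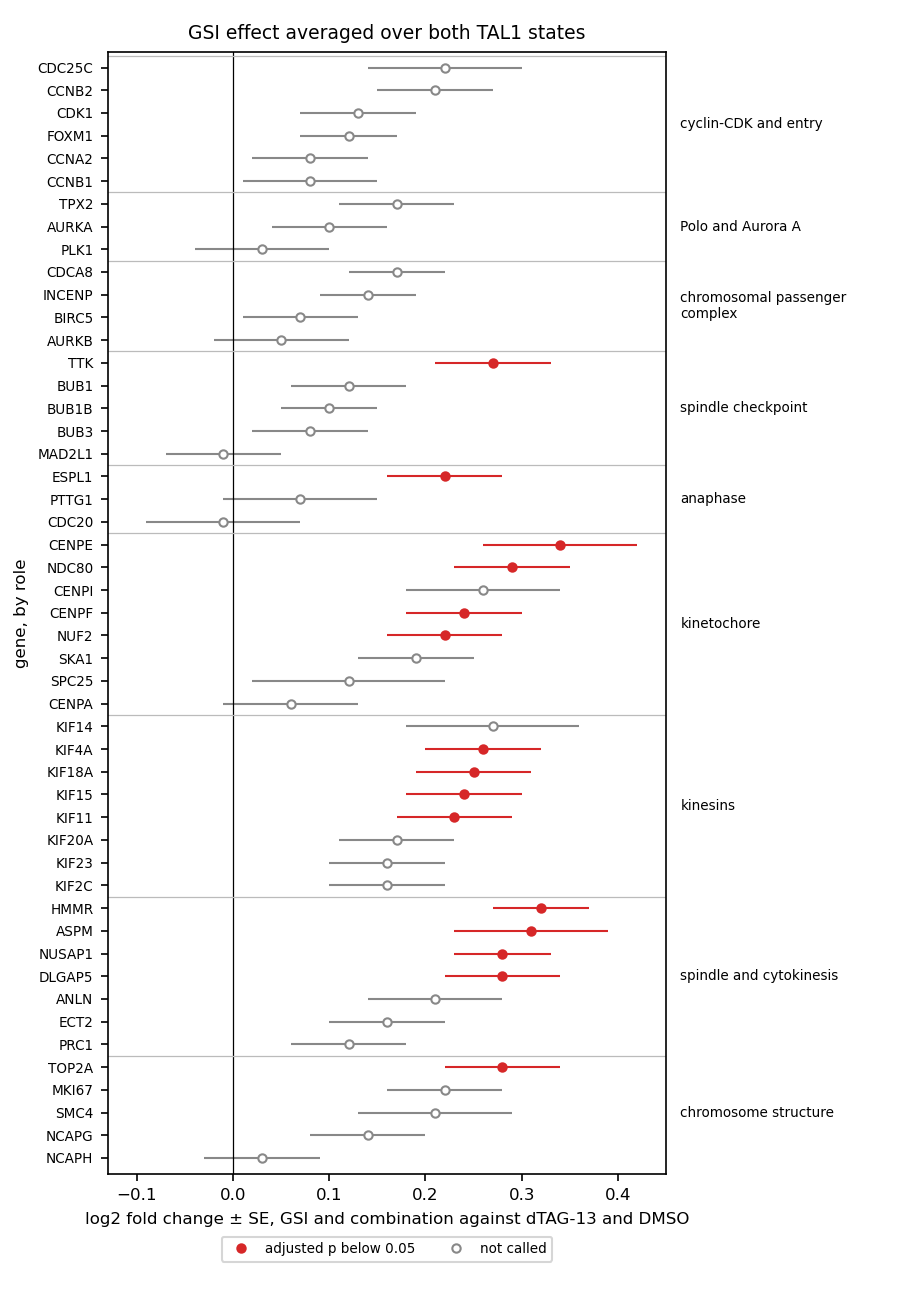
Log2 fold change of GSI averaged over both TAL1 states (GSI and combination against dTAG-13 and DMSO) for each gene, with bars of 1 SE, grouped by role. Filled red points are the 15 genes with an adjusted p below 0.05, and open points the other 34. CENPE lies furthest right at 0.34, and CDC20 and MAD2L1 lie furthest left at -0.01.

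Of the 8 kinetochore genes, 4 rose with GSI and 4 did not pass, with a median log2 fold change of 0.23. CENPE, a kinesin motor of the kinetochore that helps carry chromosomes to the spindle equator, had 93.1 and 80.4 CPM with the combination, 103 and 84.3 CPM with GSI, 77.6 and 65.1 CPM with dTAG-13 and 70.1 and 71.6 CPM with DMSO. Every library with GSI was above every library without it, although replicate 1 was well above replicate 2 in the combination, GSI and dTAG-13. The change was 0.34 (SE 0.08, adjusted p = 0.0288, edgeR), the largest of the 49, and it lay between 0.27 and 0.41 when any 1 library was left out. NDC80, the microtubule-binding subunit that names its complex, had 58.8 and 61.6 CPM with the combination, 60.5 and 61.3 CPM with GSI, 52.1 and 50.1 CPM with dTAG-13 and 45.3 and 50.3 CPM with DMSO. The replicates of NDC80 were close together except in DMSO, and the change was 0.29 (SE 0.06, adjusted p = 0.0144, edgeR).

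NUF2, the partner of NDC80 in that complex, had 68.6 and 71.7 CPM with the combination, 72.5 and 79.6 CPM with GSI, 66.2 and 63.3 CPM with dTAG-13 and 61.4 and 59.7 CPM with DMSO (0.22, SE 0.06, adjusted p = 0.0455, edgeR). CENPF, a large protein of the outer kinetochore, had 252 and 260.4 CPM with the combination, 300.2 and 273 CPM with GSI, 246 and 217 CPM with dTAG-13 and 225 and 229 CPM with DMSO (0.24, SE 0.06, adjusted p = 0.036, edgeR). The groups did not overlap for either gene, and the combination lay nearer to dTAG-13 than GSI did to DMSO. Each of the 4 calls missed in some fits without 1 library, with adjusted p-values up to 0.0978 for NDC80, 0.15 for CENPE and 0.207 for CENPF and NUF2. SPC25, a further subunit of the NDC80 complex, stood at 0.12 (SE 0.10), with DMSO at 36 and 27.1 CPM, the widest gap between replicates of that gene. CENPI, of the inner kinetochore (0.26, SE 0.08), and SKA1, which helps the complex follow microtubule ends (0.19, SE 0.06), did not pass either. CENPA, the histone H3 variant that marks centromeres, had the lowest value, with 57.2 and 61.5 CPM with the combination, 49.9 and 55.7 CPM with GSI, 49.7 and 54.2 CPM with dTAG-13 and 56.9 and 53.8 CPM with DMSO. Its groups overlapped, and the log2 fold change was 0.06 (95% confidence interval -0.08 to 0.21).

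Of the 8 kinesins, 4 rose with GSI, 4 did not pass, and all 8 values were positive (median 0.23). KIF4A, a chromosome-bound motor of the spindle midzone, had 74.1 and 78.8 CPM with the combination, 85.1 and 76.7 CPM with GSI, 61.4 and 66.3 CPM with dTAG-13 and 64.9 and 70.1 CPM with DMSO (0.26, SE 0.06, adjusted p = 0.0303, edgeR). KIF18A, which dampens chromosome movements at the equator, had 41.6 and 40.8 CPM with the combination, 41.8 and 38 CPM with GSI, 36 and 34.8 CPM with dTAG-13 and 33.7 and 32.3 CPM with DMSO (0.25, SE 0.06, adjusted p = 0.0405, edgeR). Neither gene had a library with GSI at or below one without it. KIF15 and KIF11 are motors that push the spindle poles apart. KIF15 had 119 and 116 CPM with the combination, 128 and 119.7 CPM with GSI, 107 and 100.0 CPM with dTAG-13 and 100.2 and 101 CPM with DMSO (0.24, SE 0.06, adjusted p = 0.0233, edgeR). KIF11 had 173 and 177 CPM with the combination, 189 and 167 CPM with GSI, 152 and 149 CPM with dTAG-13 and 149.9 and 152 CPM with DMSO (0.23, SE 0.06, adjusted p = 0.0372, edgeR). With single libraries left out, the 4 kinesins called reached adjusted p-values of 0.147 (KIF15) to 0.184 (KIF18A).

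KIF14, a motor of cytokinesis, had the highest value of the kinesins at 0.27 but an SE of 0.09, and it did not pass. It had 80.7 and 70.6 CPM with the combination, 99.4 and 75.8 CPM with GSI, 70.9 and 60.8 CPM with dTAG-13 and 68.2 and 71 CPM with DMSO. GSI replicate 1 stood far above its partner, and the groups overlapped. KIF23, the motor subunit of centralspindlin, had 84.6 and 95.7 CPM with the combination, 101 and 93.5 CPM with GSI, 84.9 and 83.8 CPM with dTAG-13 and 79.9 and 86.1 CPM with DMSO (0.16, SE 0.06, overlapping groups). KIF20A, which works in cytokinesis (0.17, SE 0.06), and KIF2C, which shortens microtubules at centromeres (0.16, SE 0.06), were close to it and did not pass.

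The spindle and cytokinesis genes had the highest median of the role groups, 0.28, with 4 of 7 higher and 3 not passing. HMMR, a spindle protein that binds microtubules and hyaluronan, had 131 and 131 CPM with the combination, 126 and 123 CPM with GSI, 111 and 109 CPM with dTAG-13 and 95.3 and 96 CPM with DMSO. The 4 groups formed 4 separate steps, with replicates close together. HMMR rose with GSI by 0.32 (SE 0.05, adjusted p = 0.00337, edgeR). NUSAP1, which bundles microtubules near chromosomes, had 276 and 292 CPM with the combination, 282 and 278 CPM with GSI, 241 and 242 CPM with dTAG-13 and 229.7 and 217 CPM with DMSO (0.28, SE 0.05, adjusted p = 0.00971, edgeR). DLGAP5, a spindle protein that stabilises the fibres to kinetochores, had 107 and 107 CPM with the combination, 112 and 104 CPM with GSI, 95.8 and 88.5 CPM with dTAG-13 and 87.3 and 83.3 CPM with DMSO (0.28, SE 0.06, adjusted p = 0.0138, edgeR). ASPM, which focuses spindle poles, had 149 and 129 CPM with the combination, 161 and 134 CPM with GSI, 120.4 and 106 CPM with dTAG-13 and 113 and 123 CPM with DMSO (0.31, SE 0.08, adjusted p = 0.0351, edgeR). In ASPM replicate 1 was the higher one in 3 groups and the lower one in DMSO. Without 1 library the adjusted p reached 0.0917 for NUSAP1, 0.105 for DLGAP5 and 0.176 for ASPM.

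PRC1, which cross-links microtubules of the midzone, was lowest in that group, with 156 and 159 CPM with the combination, 160.2 and 156 CPM with GSI, 147 and 143 CPM with dTAG-13 and 151 and 138 CPM with DMSO (0.12, SE 0.06, adjusted p = 0.21, edgeR). Its libraries with GSI were all above those without. Its unadjusted p was below 0.05 in edgeR, as in all 7 genes of that group, but it did not pass after adjustment. ANLN, which scaffolds the contractile ring (0.21, SE 0.07), and ECT2, which activates RhoA at the cleavage site (0.16, SE 0.06), did not pass.

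**Figure D4:**
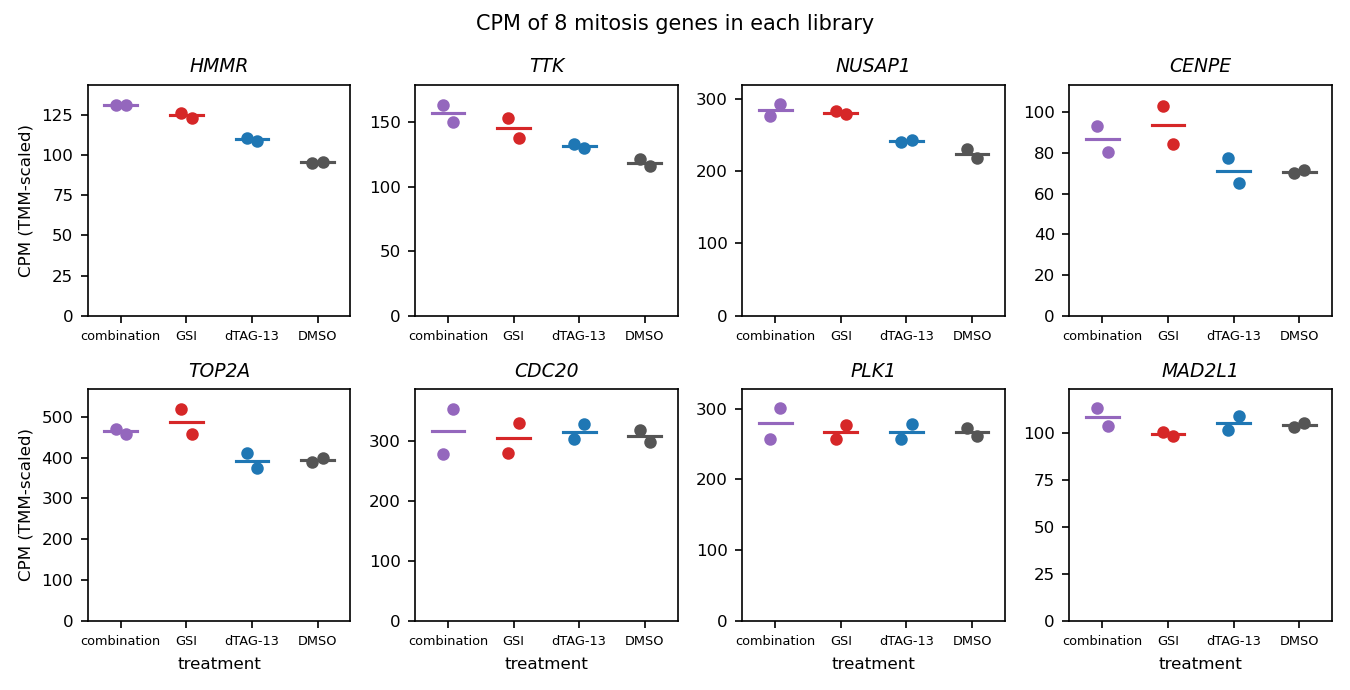
CPM of 8 genes in each library on axes that start at 0, with a point per library and a line at the mean of 2, for the combination, GSI, dTAG-13 and DMSO. HMMR, TTK, NUSAP1, CENPE and TOP2A were called higher with GSI, while CDC20, PLK1 and MAD2L1 overlap between treatments. The differences are small beside the level of each gene.

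Of the 5 spindle checkpoint genes, 1 rose, TTK, and 4 did not pass (median 0.10). TTK, the kinase MPS1 that starts checkpoint signalling, had 163 and 149.8 CPM with the combination, 153 and 137 CPM with GSI, 133 and 130.0 CPM with dTAG-13 and 121 and 116 CPM with DMSO (0.27, SE 0.06, adjusted p = 0.0176, edgeR). Its 4 libraries with GSI were all above the other 4, and the adjusted p reached 0.118 with 1 library left out. MAD2L1, which carries the checkpoint's inhibitory signal, had 113 and 104 CPM with the combination, 101 and 98.1 CPM with GSI, 101 and 109 CPM with dTAG-13 and 103 and 105 CPM with DMSO. These overlapped, with a log2 fold change of -0.01 (95% confidence interval -0.14 to 0.12). BUB1 (0.12, SE 0.06), BUB1B (0.10, SE 0.05) and BUB3 (0.08, SE 0.06), which assemble the checkpoint at kinetochores, did not pass.

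Of the 3 anaphase genes, ESPL1 rose and CDC20 and PTTG1 did not pass (median 0.07). ESPL1, the protease separase that cuts cohesin, had 146 and 135 CPM with the combination, 141 and 135 CPM with GSI, 120.1 and 114 CPM with dTAG-13 and 118 and 128 CPM with DMSO (0.22, SE 0.06, adjusted p = 0.0466, edgeR). Its groups did not overlap, but its call was among the closest to the threshold, at 0.0501 with DESeq2's size factors, 0.0518 with the DESeq2 Wald test and up to 0.217 with 1 library left out. CDC20, which activates the anaphase-promoting complex, had 279 and 355 CPM with the combination, 281 and 331 CPM with GSI, 304 and 329 CPM with dTAG-13 and 319 and 299 CPM with DMSO. Replicates differed more than groups did, and the value was -0.01 (95% confidence interval -0.19 to 0.17). PTTG1, the separase inhibitor securin, stood at 0.07 (SE 0.08).

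Of the 5 chromosome structure genes, TOP2A rose and 4 did not pass in edgeR (median 0.21). TOP2A, the topoisomerase that untangles sister DNA, had 471 and 458 CPM with the combination, 518 and 458 CPM with GSI, 411 and 374 CPM with dTAG-13 and 389 and 399.6 CPM with DMSO (0.28, SE 0.06, adjusted p = 0.0237, edgeR). Its lowest library with GSI was above its highest without, and without 1 library the adjusted p reached 0.151. MKI67, the proliferation antigen that coats mitotic chromosomes, did not pass in edgeR (0.22, SE 0.06, adjusted p = 0.0612) but did in the DESeq2 Wald test (0.21, adjusted p = 0.0432). The condensin subunits SMC4 (0.21, SE 0.08) and NCAPG (0.14, SE 0.06) did not pass. NCAPH, also of condensin, had 107 and 119 CPM with the combination, 118 and 129 CPM with GSI, 115 and 117 CPM with dTAG-13 and 118 and 112 CPM with DMSO, which overlapped (0.03, 95% confidence interval -0.10 to 0.16).

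None of the 13 genes in the 3 remaining role groups passed with GSI in the main edgeR fit or in DESeq2. These were 0 of 6 cyclin, CDK and entry genes (median 0.12), 0 of 3 Polo and Aurora A genes (0.10) and 0 of 4 genes of the chromosomal passenger complex (0.10). These groups hold kinases and other proteins, and the kinase TTK, which was called, stands with the checkpoint genes. All 13 values were nevertheless positive, against 51.6% of all genes. Of the 13, 7 had an unadjusted p below 0.05, against 11.1% of all genes higher. Over all genes 3.38% were called higher in the main fit and 2.71% with no filter on low counts. That share was 5.57% with the length and GC offset, 5.48% with the replicate block and 7.91% with both. With the block and the DMSO numbers crossed, a setting chosen after seeing the data, it was 9.29%. With the length and GC offset 4 of the 13 passed (CCNB2, CDC25C, TPX2 and CDCA8), with the replicate block 2 (CCNB2 and CDCA8) and with both 5 (INCENP also). With the block and the DMSO numbers crossed 6 passed (CDK1 also), and with no filter on low counts or without combination replicate 1 CCNB2 passed. CDC25C, the phosphatase that switches on CDK1, had 30.2 and 26.7 CPM with the combination, 29.2 and 31.3 CPM with GSI, 24.5 and 26.4 CPM with dTAG-13 and 26.2 and 23.6 CPM with DMSO (0.22, SE 0.08, adjusted p = 0.102, edgeR). CCNB2, a B-type cyclin, came nearest to the threshold (0.21, SE 0.06, adjusted p = 0.0517, edgeR). CCNA2, cyclin A, had 219 and 234 CPM with the combination, 232 and 233 CPM with GSI, 222 and 226 CPM with dTAG-13 and 219 and 204 CPM with DMSO, with overlapping groups (0.08, SE 0.06). CDK1 (0.13, SE 0.06), CCNB1 (0.08, SE 0.07) and FOXM1, a transcription factor of mitotic genes (0.12, SE 0.05), did not pass.

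TPX2, which activates Aurora A on the spindle, had 378 and 427 CPM with the combination, 418 and 420.0 CPM with GSI, 376 and 376 CPM with dTAG-13 and 359 and 351 CPM with DMSO (0.17, SE 0.06, adjusted p = 0.116, edgeR). AURKA, the Aurora A kinase, stood at 0.10 (SE 0.06). PLK1, the Polo kinase, had 258 and 301 CPM with the combination, 257 and 277 CPM with GSI, 257 and 278 CPM with dTAG-13 and 273 and 262 CPM with DMSO (0.03, 95% confidence interval -0.11 to 0.17). CDCA8, borealin of the passenger complex, had 148 and 149 CPM with the combination, 153 and 149 CPM with GSI, 135 and 133 CPM with dTAG-13 and 133 and 131 CPM with DMSO. Its replicates were tight and the groups apart, but 0.17 (SE 0.05) did not pass (adjusted p = 0.0735, edgeR). AURKB, the kinase of that complex, had 129 and 144 CPM with the combination, 123 and 141 CPM with GSI, 129.5 and 134 CPM with dTAG-13 and 132 and 123 CPM with DMSO, which overlapped (0.05, SE 0.07). INCENP, its scaffold (0.14, SE 0.05), and BIRC5, survivin (0.07, SE 0.06), did not pass. That these kinase groups held no call and others did was not tested as a difference.

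GSI was compared without dTAG-13 (GSI against DMSO) and with it (combination against dTAG-13), in pairs of groups that share no library. In GSI against DMSO 1 of 49 rose, HMMR, and 0 fell, against 0.876% of all genes higher and 0.863% lower, and the median was 0.23. The HMMR change was 0.38 (SE 0.07, adjusted p = 0.0214, edgeR), and it did not pass without GSI replicate 1 (0.0892), DMSO replicate 1 (0.245) or DMSO replicate 2 (0.283), nor when the GSI and DMSO libraries alone were fitted (0.0602). At an unadjusted p below 0.05, 27 of 49 were higher, against 7.3% of all genes. In 39 of 49 both GSI libraries were above both DMSO libraries, against 22.6% of all genes. In combination against dTAG-13, 0 of 49 passed in edgeR or in DESeq2, against 0.639% of all genes higher and 0.569% lower in edgeR, with a median of 0.14. There 14 of 49 were higher at an unadjusted p below 0.05, against 6.5% of all genes, and in 31 both combination libraries were above both dTAG-13 libraries, against 22.2%.

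The sign was positive in both comparisons for 44 of 49 genes, against 35.6% of all genes, and negative in both for 0. The 5 of opposite sign were CENPA, MAD2L1, CDC20, PLK1 and NCAPH, which were all among the 6 lowest in the average. The log2 fold change was larger in GSI against DMSO for 41 of 49. That difference is the amount by which the combination departs from both drugs' own effects added up, and it was tested gene by gene. It was negative for 41 of 49 and positive for 8, against 48.2% of all genes positive, with a median of -0.07. No gene of the 49 passed it in edgeR or in DESeq2, and 0% of all genes passed higher or lower. At an unadjusted p below 0.05 there were 0 of 49, against 0.818% of all genes higher and 0.844% lower. Its 95% confidence intervals ran as low as -0.66 (SPC25) and as high as 0.55 (CENPA), so single departures of the size of the GSI effect were not detectable here.

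**Figure D5:**
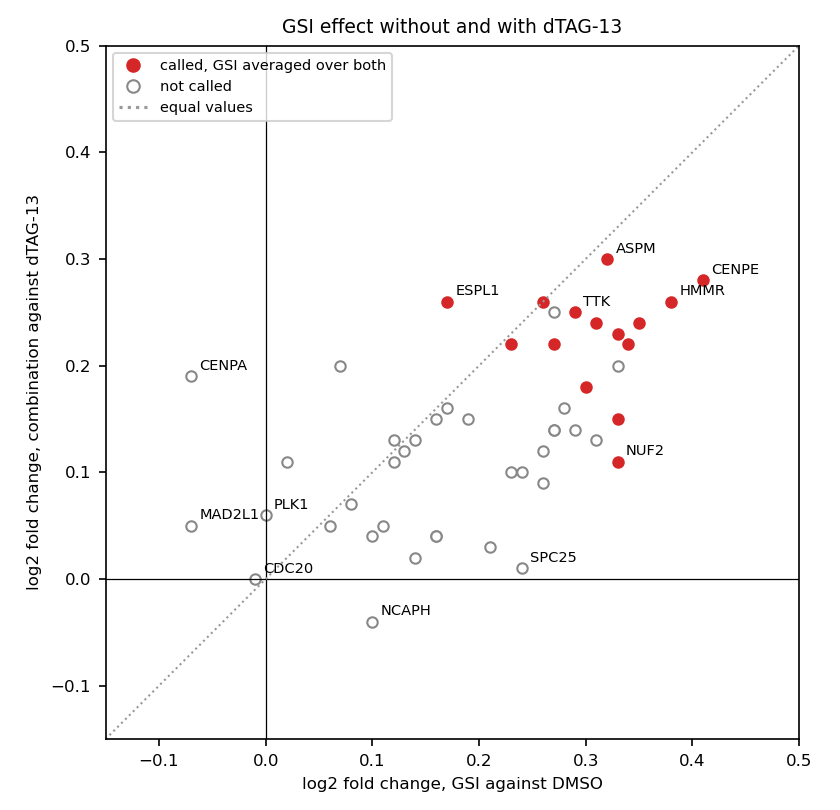
Log2 fold change of each gene with GSI in cells without dTAG-13 (horizontal axis, GSI against DMSO) and with it (vertical axis, combination against dTAG-13). Filled points are the 15 genes called in the average of both, and the dotted line marks equal values. Of the 49 genes, 44 lie in the upper right quadrant and 41 have the larger value on the horizontal axis.

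Against DMSO, the combination raised 2 of 49 genes, HMMR and TTK, and lowered 0, against 0.543% of all genes higher and 0.767% lower, with a median of 0.17. HMMR rose by 0.46 (SE 0.07, adjusted p = 0.00934, edgeR) and TTK by 0.40 (SE 0.08, adjusted p = 0.0393, edgeR). Without DMSO replicate 1 or DMSO replicate 2, HMMR (0.166 and 0.195) and TTK (0.268 and 0.449) did not pass, and TTK did not pass without combination replicate 1 (0.216). In 35 of 49 both combination libraries were above both DMSO libraries, against 21.6% of all genes. Against GSI alone, the combination gave 0 calls in edgeR or in DESeq2 and a median of -0.04, against 0.0192% of all genes higher and 0.0383% lower. There 1 gene, MKI67, had an unadjusted p below 0.05 and was lower (-0.20, SE 0.09), against 2.41% of all genes lower. In the authors' deposited tables, HMMR was called with GSI (0.37, adjusted p = 0.0498), and HMMR (0.45, adjusted p = 0.00262), TTK (0.4, adjusted p = 0.0162) and NUSAP1 (0.34, adjusted p = 0.0413) with the combination. The authors' deposited tables called none of the 49 higher with dTAG-13, against 0.0513% of all genes, and called 0.891% of all genes higher with GSI and 0.629% with the combination.

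With dTAG-13 alone none of the 49 genes was called. Against DMSO the log2 fold change was positive in 33 and negative in 16, against 51.9% of all genes positive. In dTAG-13 against DMSO 0 of 49 passed in edgeR or in DESeq2, against 0% of all genes higher and 0.0192% lower in edgeR, and the median was 0.02. The values ran from -0.13 to 0.20, and 15 genes had both dTAG-13 libraries above both DMSO libraries, against 17.7% of all genes, and 3 had them below, against 17.6%. The highest was HMMR at 0.20 (SE 0.07), the only one of the 49 with an unadjusted p below 0.05 (0.0192 in edgeR), against 1.42% of all genes higher. Averaged over both GSI states, dTAG-13 gave 0 calls in edgeR or in DESeq2, against 0.0767% of all genes higher and 0.422% lower, with a median of 0.00. The 95% confidence intervals of that average ran between -0.34 (KIF14) and 0.31 (PTTG1) over the 49 genes, and HMMR stood at 0.14 (SE 0.05, adjusted p = 0.665, edgeR).

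Other genes of mitosis were read in the same test. Of 117 listed, 115 were tested, and 11 rose and 1 fell in the GSI average (median 0.07), against the 3.38% of all genes that rose and 3.56% that fell. They included 6 of 27 tested spindle and cytokinesis genes, 3 of 34 kinetochore genes, 1 of 17 cohesin and condensin genes and 1 of 19 entry and exit regulators. The last 3 of these counts rest on 1 to 3 genes each. GTSE1, a microtubule plus-end protein of G2 and M phase, had 148 and 156 CPM with the combination, 154 and 156 CPM with GSI, 123 and 119 CPM with dTAG-13 and 119 and 125 CPM with DMSO (0.34, SE 0.05, adjusted p = 0.00274, edgeR). Its 4 libraries with GSI were all above the 4 without it, while the combination overlapped GSI and dTAG-13 overlapped DMSO. PIMREG (0.32), CKAP2L, a spindle protein (0.32), CIT, the citron kinase of cytokinesis (0.29), HJURP, the chaperone of CENPA (0.25), SPC24, the partner of SPC25 (0.25), SGO1, which guards centromeric cohesion (0.25), KIF20B (0.24), SKA2, a partner of SKA1 (0.23), KIFC1 (0.23) and SPAG5 (0.20) also rose. GTSE1 stayed between 0.32 and 0.36 in all 15 alternatives. The other genes that rose each lost their call without at least 1 library.

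The 18 tested subunits and regulators of the anaphase-promoting complex had 6 positive values, 12 negative values and a median of 0.00. ANAPC1, the largest subunit of that complex, fell, with 87.8 and 90.0 CPM with the combination, 95 and 80.3 CPM with GSI, 101 and 98.6 CPM with dTAG-13 and 106 and 109 CPM with DMSO (-0.23, SE 0.06, adjusted p = 0.0493, edgeR). Its call was lost in 7 of the 8 fits without 1 library, with adjusted p-values up to 0.196. TRIP13, an ATPase that takes the checkpoint complex apart, had 101 and 119 CPM with the combination, 109 and 119 CPM with GSI, 129 and 135 CPM with dTAG-13 and 130.5 and 135 CPM with DMSO (-0.24, SE 0.07, adjusted p = 0.0501, edgeR). All libraries of TRIP13 with GSI were below all without, and it passed in 9 of 15 alternatives, DESeq2 among them (adjusted p = 0.0368). CENPX stood at -0.23 (SE 0.13) with overlapping groups. Of 35 DNA replication genes 0 passed in the GSI average in edgeR or in DESeq2. In edgeR 4 were higher and 3 lower at an unadjusted p below 0.05, against 11.1% of all genes higher and 10.8% lower. Of the 35 values 18 were positive and 17 negative, against 51.6% of all genes positive, with a median of 0.00. After a correction for length and GC content 3 genes passed (1 higher, 2 lower). In that fit 871 of all 15646 genes were higher and 937 lower. In the same libraries MYC was lower with GSI (-0.83, SE 0.06), as were DTX1 (-2.72, SE 0.07) and HES1 (-2.28, SE 0.14). The CDK inhibitors CDKN2D (0.79, SE 0.08), CDKN2C (0.36, SE 0.06) and CDKN1B (0.27, SE 0.06) were higher, and CDKN1A did not pass (-0.32, SE 0.26).

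Transcript length and base composition differed between called and other genes in their medians, without an even trend in length. The 15 genes called had a median exon length of 4668 bases and a median GC content of 39.1%, the 34 not called 3944 bases and 45.5%, and all genes tested 4346 bases and 48.7%. Levels also differed by length between replicates: replicate 1 was above replicate 2 for 5 of the 6 longest members in the combination (median log2 difference 0.15), 6 of 6 in GSI (0.18) and 6 of 6 in dTAG-13 (0.18), but for 0 of 6 in DMSO (-0.08). Those 6 fall in the longest of 5 equal length classes of genes, where the median GSI average over all genes was 0.021, against -0.042 in the shortest class. From the shortest class to the longest, 1 of 12, 4 of 12, 5 of 13, 1 of 6 and 4 of 6 members were called. When each library was corrected for a trend with length and GC, 26 of the 49 genes passed as higher in the GSI average and 0 as lower, against 5.57% of all genes higher.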

How the data were processed

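The labels' protocols give strand-specific libraries of total RNA, read from both ends, for the 8 samples. The submitters' processing notes name the hg19 genome, the aligner STAR (2.5.2a), featureCounts and DESeq2 (1.12.4). The authors deposited raw counts per gene and library, which are whole reads with no normalization. They also deposited 3 tables of each treatment against DMSO, whose log2 fold changes, mean normalized counts (a signal, not used here), test score (fold change over its error, not used here) and p-values were made by the authors with DESeq2. Which strand setting and annotation the counting used is not stated in the files or labels.

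Here genes were kept by filterByExpr (15646), scaled by TMM, and fitted with edgeR 4.0.16 in R 4.3.3 as 1 model of 4 groups over 8 libraries, with 4 residual degrees of freedom and a common biological coefficient of variation of 0.0804. Quasi-likelihood F-tests were 2-sided, with Benjamini-Hochberg adjustment over the 15646 genes and a threshold of 0.05. Each SE is the log2 fold change divided by the square root of F. The test was first run on simulated data. The outcome of that run is not given here, so it does not show how well the test finds changes as small as those described. Alternatives were the size factors of DESeq2 in place of TMM, no filter, the DESeq2 1.42.0 Wald test, a replicate block, the compared libraries alone, a length and GC offset (from a GENCODE annotation, 97% of genes had both), and leaving out each library. Per-library values are given for every gene called and for the highest and lowest of each role group. SPC25 and SKA1 each had a second gene entry with 0 counts, which was left out. The genes, the other lists, the motifs and the comparisons were chosen with earlier results of these data known. One further list of markers is not reported here.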

Additional observations from a re-analysis of the deposited data

How the results depend on the processing

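Of the 15 genes called in the GSI average, HMMR kept its call in all 15 alternatives, all 15 kept their direction, 14 lost their call without at least 1 library, and 3 (ESPL1, NUF2, KIF18A) also in another setting. The number of the 49 called there was 15, and it was 14 with DESeq2's size factors (3.25% of all genes higher), 20 with no filter (2.71%), 13 with the DESeq2 Wald test (2.95%) and 26 with the length and GC offset (5.57%), and 1 to 18 with 1 library left out. For GSI against DMSO (1 called) it was 10 with no filter (0.997% of all genes), 2 with the Wald test (1.01%), 0 with only the compared libraries (0.793%), 11 with the offset (1.86%) and 0 to 3 with 1 library left out, when the median ran from 0.18 to 0.23. For the combination against DMSO (2 called) it was 4 with no filter (0.802%), 5 with the offset (1.32%) and 0 to 2 with 1 library left out. For the combination against dTAG-13 (0 called) it was 1 with the offset (1.44%). The median of the combination against GSI ran from -0.05 to 0.01 with 1 library left out. Of the other mitosis genes (12 called, 11 higher and 1 lower), 25 passed with the offset in either direction. Of the DNA replication genes (0 called) 3 passed with it, also in either direction. In that fit of the GSI average, 871 of all 15646 genes were higher and 937 lower.

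The labels do not say that replicate numbers pair the samples. Same-numbered libraries deviated together among the combination, GSI and dTAG-13 (correlations 0.503 to 0.579 over genes above a mean of 5 CPM). Against DMSO they deviated in the opposite sense (-0.367 to -0.133), so not every library went best with its own number. Over the 49 genes alone the correlations were 0.569 to 0.766 among those groups and -0.629 to -0.462 against DMSO. With the replicate block, 9 of the 49 were called for GSI against DMSO, 4 for the combination against DMSO, 23 in the GSI average, and 20 of the other mitosis genes. Over all genes the share called higher was then 1.69%, 1.16% and 5.48% in these 3 comparisons. With the block and the offset together these were 18, 7, 29 and 33, with 8 for the combination against dTAG-13 and 8 DNA replication genes, against 3.37%, 2.45% and 7.91% of all genes, and 2.82% for the combination against dTAG-13. With the DMSO numbers crossed, a setting chosen after seeing the data, the block gave 24, 14, 32 and 42, with 12 for the combination against dTAG-13 and 7 DNA replication genes, against 4.58%, 3.19% and 9.29% of all genes, and 3.83% for the combination against dTAG-13. The counts of other mitosis and DNA replication genes hold both directions, while these shares are of genes called higher. Of all 15646 genes in the GSI average, 858 were higher and 964 lower with the block. With the block and the offset they were 1238 and 1441, and with the DMSO numbers crossed 1453 and 1768. Calls over all genes thus grew in these fits too.

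Scaled to the library total, the summed level moved by more than the replicate SD to 7974 CPM in combination replicate 1, 8283 CPM in GSI replicate 1, 6852 CPM in dTAG-13 replicate 2 and 6903 CPM in DMSO replicate 1. Signs changed for genes near 0 in the GSI average, none of them called: CDC20 was at 0.03 with the offset, also with the block, and at -0.10 to 0.08 with 1 library left out, PLK1 at -0.03 to 0.09, MAD2L1 at -0.04 to 0.02 and NCAPH at -0.01 to 0.07. The cause of these shifts was not tested. Fits without 1 library assume that a lone sample varies like the other groups.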
